A study of Meloidogyne incognita with 75 samples.

Results

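In Meloidogyne incognita, the southern root-knot nematode, 100 transcripts were examined that were abundant in par_J2 animals, lower in J3 and lower again in J4_female. They were drawn from the 43359 genes with one transcript identifier, out of 44267 genes and 45378 transcripts in the table of counts. A transcript had to have a mean level in J3 under 0.5 times its mean in par_J2, where levels are in CPM, the counts of a transcript scaled by the total count of its library. That held for 4717 transcripts. Its mean in female also had to be under 10 CPM, which left 4145, and its stage mean of log2(CPM + 1) had to be lower in pre_J2 than in par_J2, which left 3050. On the same log scale par_J2 had to exceed J3 and J3 had to exceed J4_female, which left 1176. The 100 with the largest score, the par_J2 log mean minus the J4_female log mean, form the group. Scores ran from 8.89 for Mi_26823.1 and 8.20 for Mi_00644.1 to 3.70 for Mi_25998.1 and 3.70 for Mi_22327.1, and the first transcripts outside were Mi_06258.1 at 3.69 and Mi_19655.1 at 3.68. The members were thus chosen by their levels in pre_J2, par_J2, J3, J4_female and female, and values in those stages are given without a test. The levels in J4, J4_moulting and male had no part in the choice.

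Root-knot nematodes hatch in the soil as worm-shaped juveniles, enter a plant root and settle there, where secretions from their gland cells turn root cells into the enlarged feeding cells on which the animal depends. The settled juvenile swells and passes through juvenile stages that lack a working feeding stylet before the last moult. The adult female feeds again and stays in the root, whereas the adult male regains a worm shape and can leave it. The files do not pair the identifiers with gene names, so no transcript is described here by function and no gene list is given.

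Each of the 75 libraries came from an individual animal, amplified by Smart-seq2, a low-input protocol that makes cDNA from whole messenger RNA molecules. By title they were 5 pre_J2 libraries, from animals hatched in vitro, 12 par_J2, 14 J3, 8 J4, 14 J4_moulting, 8 J4_female, 7 male and 7 female libraries. Animals were staged by their morphology. The male libraries carry a tag that reads J4_male and the female libraries one that reads Adult female, and the labels give no strain, host plant or treatment. Totals ran from 3265447 to 40174566 counts with a median of 15503915, and the shallowest library was J4 replicate 5. The labels name no batch or date, and a batch confined to some stages and those stages cannot be told apart. In whole animals, fewer cells of a type and less RNA per cell cannot be told apart either.

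The group as a whole peaked in par_J2 and was at its lowest in female. The members together took 0.0628 ± 0.0336% of the counts in pre_J2 (SD, n = 5), 2.76 ± 1.70% in par_J2 (n = 12), 0.584 ± 0.291% in J3 (n = 14) and 0.422 ± 0.363% in J4 (n = 8). They took 0.0565 ± 0.0531% in J4_moulting (n = 14), 0.106 ± 0.0764% in J4_female (n = 8), 0.0416 ± 0.0419% in male (n = 7) and 0.0114 ± 0.0121% in female (n = 7). These levels follow from the rule in the stages it used, and the values for J4, J4_moulting and male do not. J3 animals ranged from 0.209 to 1.03% and J4 animals from 0.0776 to 1.16%, and in each of these stages 1 animal lay above the lowest par_J2 animal, at 1.004%. J4_moulting animals ranged from 0.0145 to 0.220% and male animals from 0.00970 to 0.122%. All of them lay below every par_J2 animal, and all but J4_moulting replicate 1 lay below every J3 animal, but both stages overlapped the lower J4 animals. The plot of summed shares shows these ranges side by side.

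**Figure D1:**
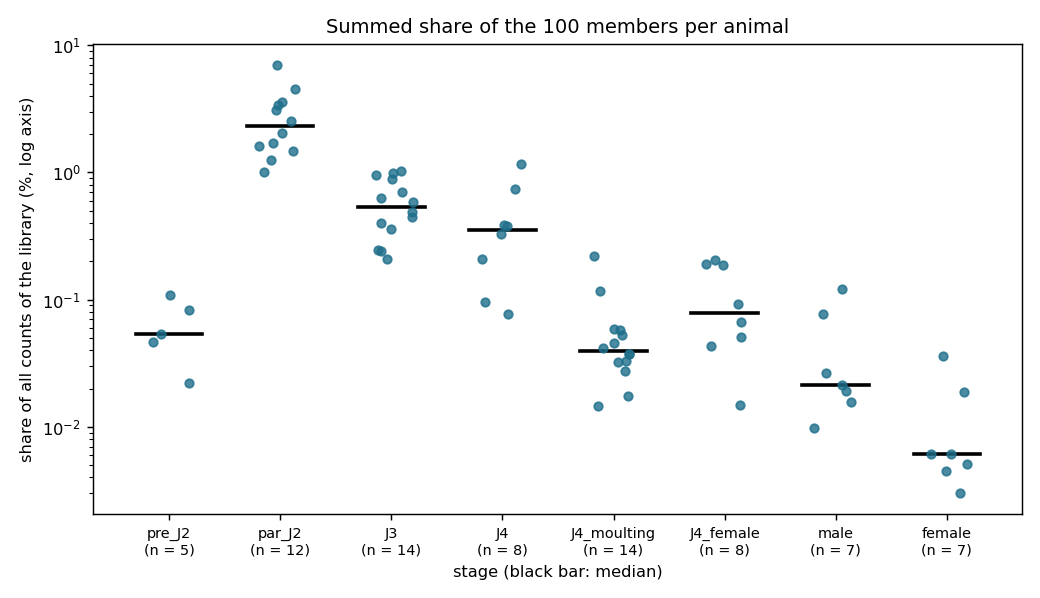
Share of all counts of a library held by the 100 members together (percent, log axis), 1 point per animal, by stage, with a black bar at the stage median. The par_J2 animals lie between 1.004 and 6.95%, and the 14 J4_moulting animals between 0.0145 and 0.220%.

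The decline was not a steady one through every stage. Mean levels were lower in J4 than in J3 for 71 members and higher for 29, and the J3 mean over the J4 mean had a median of 1.41. The step from J4 to J4_moulting was the larger: 98 members had the lower mean in J4_moulting, and the J4 mean over the J4_moulting mean had a median of 8.68. Between J4_moulting and J4_female the direction was mixed: 61 members had a lower mean in J4_moulting than in J4_female and 39 a higher one. The titles do not order J4_moulting and J4_female in time, and the rule used the J4_female levels. In male, 97 members had a lower mean than in J4, 92 a lower mean than in J4_moulting and 90 a lower mean than in J4_female. The J4 mean over the male mean, for members with a count in male, had a median of 109. The share of all transcripts with a lower mean was not taken. With counts scaled by library totals, as here, the median log2 fold change (edgeR) over all transcripts tested was -0.29 for J4_moulting against J4. It was -0.54 for male against J4 and -0.52 for male against J4_moulting.

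**Figure D2:**
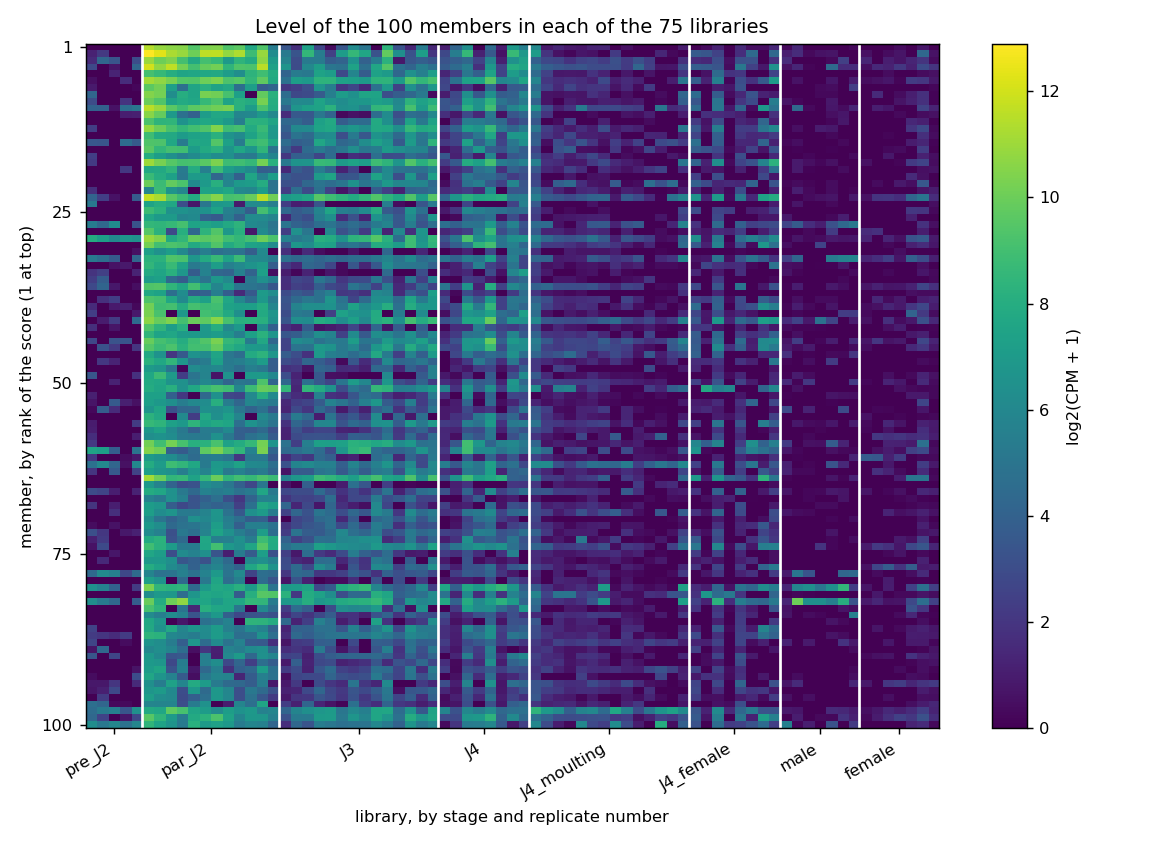
Level of each member, as log2(CPM + 1) in color, in every library, with members in rows by rank of the score and libraries in columns by stage and replicate number. The block of high values in par_J2 thins out through J3 and J4, J4_moulting replicate 1 stands out at the left edge of its stage, and a few rows carry signal in male.

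All 100 members had their highest stage mean in par_J2. The lowest member mean there was 33.4 CPM, the median over members 137 CPM and the highest 2592 CPM. The 10 most abundant members held 41.8% of the summed par_J2 level. Outside par_J2, the next highest mean was in J3 for 66 members, in J4 for 28, in pre_J2 for 3, in male for 2 and in J4_moulting for 1. Those in pre_J2 were Mi_22327.1, Mi_26220.1 and Mi_29827.1, those in male Mi_02633.1 and Mi_06326.1, and the one in J4_moulting Mi_06277.1, all of them singled out here after their values were seen. The median member mean was 0.833 CPM in pre_J2, 31.2 CPM in J3, 23.6 CPM in J4, 2.37 CPM in J4_moulting, 3.90 CPM in J4_female, 0.199 CPM in male and 0.430 CPM in female.

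Detection was also highest in par_J2, which follows in part from the rule, since it favored par_J2 over pre_J2, J3 and J4_female. The other stages did not keep the order of their median member means. A typical library, taken as the stage median, held counts of 36 members in pre_J2, 99.5 in par_J2, 97 in J3, 94 in J4, 80.5 in J4_moulting, 64 in J4_female, 38 in male and 46 in female. At 1 CPM or more the medians were 98 members in par_J2, 88.5 in J4, 54 in J4_moulting and 15 in male. No count at all was found for 27 members over the 5 pre_J2 libraries and for 18 members over the 7 male libraries, shares to set beside 22.8% and 17.5% of all transcripts in the table. A count of 0 over the male libraries allows up to 0.0192 CPM and over the pre_J2 libraries up to 0.0487 CPM (3 counts of the pooled total, counting error only). For those 18 members the pooled par_J2 level was at least 1932-fold to 12799-fold higher than that male limit, and the pooled J4 level at least 75.6-fold to 2196-fold higher. These 18 were picked by their count of 0 in male, and the rule used their par_J2 level. The large par_J2 fold thus follows from the choice. A pooled level here is the summed counts of a stage over its pooled total, not the mean over its libraries.

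The ranges of the stages that the rule used overlapped for nearly all members at first and for fewer later on. Every J3 animal lay below every par_J2 animal for 1 member (0.00688% of all transcripts with a count in either stage). The same held in female for 76 members (3.55% of all transcripts), in J4_female for 40 (0.149%) and in pre_J2 for 62 (5.04%). For J4_moulting it held for 44 members (0.628%), for male for 71 (1.96%) and for J4 for 1 (0.0206%), with the par_J2 side of each of these pairs used by the rule. The fold between the means was moderate at the J3 step: the par_J2 mean over the J3 mean ran from 2.01 to 41.5 with a median of 4.30, the lower end being set by the rule.

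The member with the highest score, Mi_26823.1, had no count in any of the 5 pre_J2 animals. In par_J2 its level ran from 41.6 CPM over a median of 1080 CPM to 2777 CPM, in J3 from 0 over 9.39 to 337 CPM and in J4 from 0 over 18.7 to 123 CPM. In J4_moulting it ran from 0 over 0.762 to 66.8 CPM, in J4_female from 0 over 0.462 to 1.92 CPM, in male from 0 over 0 to 1.58 CPM and in female from 0 over 0 to 0.735 CPM. The par_J2 animals varied widely, and the low par_J2 animals overlapped the high J3, J4 and J4_moulting animals.

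Mi_00644.1, next by score and the most abundant member in par_J2, ran there from 76.1 over a median of 2172 to 7569 CPM. In the 5 pre_J2 animals it was at 1.33, 3.39, 0, 0 and 0 CPM. It ran from 2.97 over 62.6 to 877 CPM in J3, from 0.563 over 27.5 to 411 CPM in J4, from 0 over 0.379 to 133 CPM in J4_moulting and from 0 over 7.35 to 21.0 CPM in J4_female. Male animals reached 2.14 CPM and female animals 18.6 CPM. All par_J2 animals lay above all pre_J2, J4_female, male and female animals. Overlap with J3, J4 and J4_moulting came mostly through the lowest par_J2 animal, replicate 12 at 76.1 CPM. Only J3 replicate 10, at 877 CPM, exceeded the next lowest par_J2 animal, replicate 10 at 454 CPM.

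Mi_38656.1 and Mi_06600.1 were the next most abundant in par_J2. Mi_38656.1 ran from 167 over 1029 to 4118 CPM in par_J2, from 6.58 over 38.0 to 698 CPM in J3, from 2.51 over 33.2 to 254 CPM in J4 and from 0.648 over 7.63 to 35.6 CPM in J4_moulting. Mi_06600.1 declined more slowly at first. It ran from 231 over 939 to 3306 CPM in par_J2, from 128 over 330 to 748 CPM in J3, from 17.9 over 161 to 304 CPM in J4 and from 0.0762 over 10.7 to 54.3 CPM in J4_moulting. In male animals it reached no more than 0.837 CPM, below the lowest J4 animal.

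The members just inside the limit looked different from those at the top. Mi_25998.1 ran from 39.6 over 150 to 736 CPM in par_J2, from 8.23 over 106 to 255 CPM in J3 and from 0 over 21.7 to 149 CPM in J4_female. Mi_22327.1 ran from 17.2 over 111 to 340 CPM in par_J2, from 2.26 over 31.8 to 102 CPM in J3 and from 0 over 6.54 to 22.9 CPM in J4_female. Both had counts in pre_J2, Mi_25998.1 at 19.6, 4.99, 0, 0.737 and 5.97 CPM and Mi_22327.1 at 77.8, 35.3, 59.3, 28.1 and 60.2 CPM in the 5 pre_J2 animals. Just outside, Mi_06258.1 ran from 0 over 21.7 to 104 CPM in par_J2 and from 0 over 0 to 1.07 CPM in J4_female, and Mi_19655.1 ran from 4.06 over 35.1 to 116 CPM in par_J2 and from 0 over 0.782 to 17.1 CPM in J4_female. The limit thus fell between transcripts of close scores and unlike profiles, the outer pair being the less abundant in par_J2.

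The highest pre_J2 levels belonged to Mi_20109.1 and Mi_23912.1. Mi_20109.1 was at 241, 150, 68.9, 102 and 85.2 CPM in the 5 pre_J2 animals and ran from 226 over 694 to 1904 CPM in par_J2. Mi_23912.1 was at 183, 154, 13.6, 0 and 29.9 CPM in pre_J2 and ran from 11.6 over 484 to 1466 CPM in par_J2. Mi_20109.1 was thus well above zero in every pre_J2 animal, and the pre_J2 animals of Mi_23912.1 differed widely. Of all 100 members, 12 had a pre_J2 mean of 10 CPM or more and 42 had one of 1 CPM or more. Over all transcripts, 54.9% had a pre_J2 mean of 1 CPM or more. The rule held the pre_J2 level of the members below that in par_J2.

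**Figure D3:**
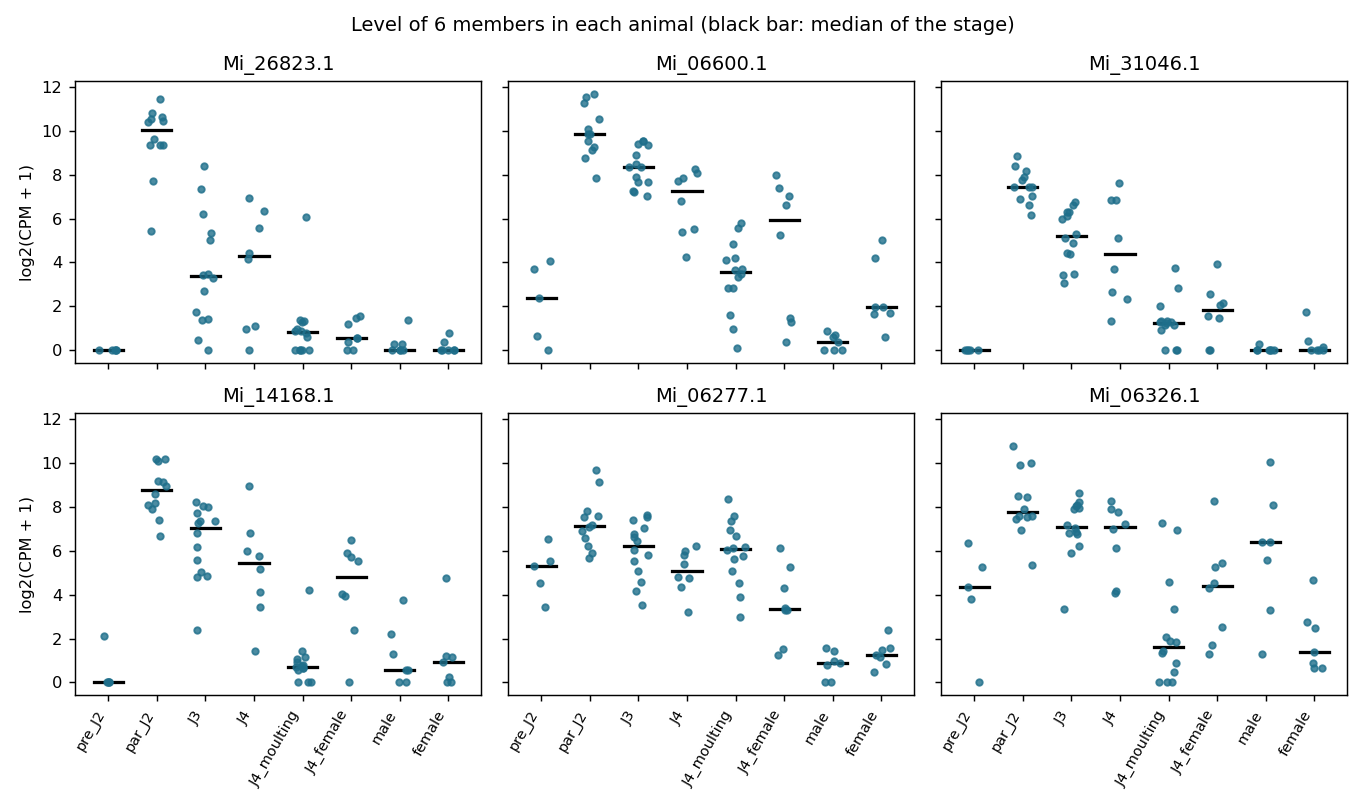
Level as log2(CPM + 1) of 6 members in each animal, by stage, with a black bar at the stage median. Mi_26823.1, Mi_06600.1, Mi_31046.1 and Mi_14168.1 are low in J4_moulting and male, Mi_06277.1 keeps its level in J4_moulting, with a median of 67.2 CPM there, and Mi_06326.1 is present in male, with a median of 83.1 CPM.

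Some par_J2 animals differed in most of the group at once. The summed share was highest in par_J2 replicate 1, at 6.95%, and lowest in replicate 12, at 1.004%, a 6.92-fold difference. Replicate 1 held the highest par_J2 value of 50 members and lay above the par_J2 median for 97, and replicate 2 lay above it for 95. Replicates 9 and 12 lay above it for only 18 and 19 members. The totals of these libraries were 13198463 counts in replicate 1, 14771918 in replicate 2, 21401914 in replicate 9 and 10108186 in replicate 12. The cause of the differences between these animals was not tested. Over the 12 animals the coefficient of variation of a member had a median of 86.5%, and ran from 51.5 to 160%. The Spearman correlation between pairs of members over these animals had a median of 0.42. Among the 5857 transcripts at or over the lowest member mean in par_J2, that median was 0.014.

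A like pattern was seen in later stages. J4 replicate 5, the shallowest library at 3265447 counts, held the highest J4 value of 56 members, and J4 replicates 1 and 2 lay above the J4 median for only 16 and 5 members. J4_moulting replicate 1 held the highest J4_moulting value of 63 members and lay above the stage median for 98, and its summed share of 0.220% compares with 0.116% in the next highest animal of that stage. In female, replicate 6 held the highest value of 53 members. In J3 the highest values were spread more widely, with 29 members highest in replicate 10, 20 in replicate 9 and 20 in replicate 12. The median coefficient of variation was 96.5% in J3, 125% in J4 and 144% in J4_moulting.

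Some members were missing from particular par_J2 animals while abundant in others. Of the 97 members that reached 100 CPM in a par_J2 animal, 25 were under 1 CPM in another par_J2 animal, and over the whole table this held for 796 of 5086 transcripts, or 15.7%. No count in at least 1 par_J2 animal was found for 18 members. Mi_27089.1, picked out after the values were seen as the most abundant member with no count in 3 or more par_J2 animals, had no count in par_J2 replicates 3, 5 and 10. In the other 9 par_J2 animals it ran from 83.5 over 228 to 1266 CPM. It also had no count in J3 replicates 4, 10, 12 and 14 and ran from 4.39 over 57.8 to 237 CPM in the other 10 J3 animals. The 19 par_J2 and J3 animals with a count had from 85 to 16707 counts, with none between 0 and 85.

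A second member followed the same animals. Mi_27061.1 had no count in any of those 7 animals and ran from 9.003 over 34.4 to 185 CPM in the other 9 par_J2 animals. In the other J3 animals Mi_27061.1 ran from 0 over 1.72 to 9.11 CPM. In all, 5 members had no count in at least 3 of those 7 animals, and the other 3 followed them in part or not at all. Mi_30905.1 had 0, 40 and 0 counts in the 3 par_J2 animals and 0, 22, 6 and 0 counts in the 4 J3 animals. Mi_16671.1 had 0, 94 and 0 counts in the 3 par_J2 animals and 11, 7, 11 and 0 counts in the 4 J3 animals. Mi_12047.1 did not follow them, with 4356, 307 and 104 counts in the 3 par_J2 animals and 0, 197, 0 and 0 counts in the 4 J3 animals. The totals of the 7 libraries ran from 6415093 to 24468798 counts, and par_J2 replicate 10, at the low end, was the shallowest of all par_J2 and J3 libraries. In summed share their J3 libraries ranked 2, 3, 4 and 5 of the 14 J3 libraries. Their par_J2 libraries were at 3.08% in replicate 3, 1.60% in replicate 5 and 1.24% in replicate 10, beside a par_J2 median of 2.30%. Among all transcripts, 121 had no count in those 7 libraries and a median of at least 1 CPM in the other 19 par_J2 and J3 libraries, and 29 of them a median of at least 10 CPM.

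J4_moulting was set against J4 to ask how the members behaved within stages that the rule did not use. Of the 100 members, 95 passed the low-count filter, and 41 of them were lower in J4_moulting by edgeR's quasi-likelihood test. A call needed a p under 0.05 after Benjamini-Hochberg adjustment and a log2 fold change of 1 or more in size. Over all 32417 transcripts tested, 3.41% were called lower. No member was called higher, against 5.09% of all transcripts, and DESeq2 and limma-voom called none either. At an unadjusted p under 0.05 (edgeR), 66 members were lower and 1 was higher. Of all 32417 transcripts tested, 7159 had such a p, in either direction. The log2 fold change of the 95 members had a median of -2.63, against -0.04 over all transcripts, and 93 were negative. The 5 members that did not pass had J4 means of 2.09 to 9.69 CPM. With no filter 36 of 100 members were lower, beside 3.68% of all transcripts, and none was higher. A member that passed the filter through its J4 level alone had to differ, so these counts describe the members tested.

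Mi_14168.1 had the smallest p. It ran from 0 over 0.637 to 17.9 CPM in J4_moulting and was at 1.72, 9.74, 498, 111, 16.5, 52.8, 63.4 and 35.4 CPM in the 8 J4 animals. The highest J4_moulting animal was the only one above any J4 animal. Its log2 fold change was -5.48 (SE 1.05, adjusted p = 0.00186, edgeR). Mi_25998.1 followed, running from 0.506 over 6.90 to 26.1 CPM in J4_moulting against 6.06 over 43.8 to 315 CPM in J4, with a log2 fold change of -2.89 (SE 0.58, adjusted p = 0.00241, edgeR). Its stages overlapped in their lower J4 animals. No member had every J4_moulting animal below every J4 animal, beside 0.134% of all transcripts.

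The 2 members with a positive fold change did not pass. Mi_06277.1 ran from 6.98 over 67.2 to 332 CPM in J4_moulting and from 8.38 over 33.7 to 73.2 CPM in J4. The whole J4 range lay within that of J4_moulting, and its log2 fold change was 1.46 (SE 0.52, adjusted p = 0.0816, edgeR). Mi_22327.1 ran from 0 over 6.56 to 263 CPM in J4_moulting and from 0.286 over 7.46 to 58.5 CPM in J4, with a log2 fold change of 1.11 (SE 1.16, adjusted p = 0.627, edgeR).

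The count of lower members moved with single animals. Without J4_moulting replicate 1, which held most of the high values of its stage, 53 members were lower. Without J4 replicate 5 the number was 31. J4 replicates 7 and 8 have columns placed among those of J3 in the table, and without both of them 29 members were lower, beside 2.67% of all transcripts. Scaling mattered for the split over all transcripts: 59.9% of all calls were higher with TMM scaling, and 39.95% with total counts, which moved the median of all transcripts to -0.29. With total counts 51 members were lower and none higher.

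**Figure D4:**
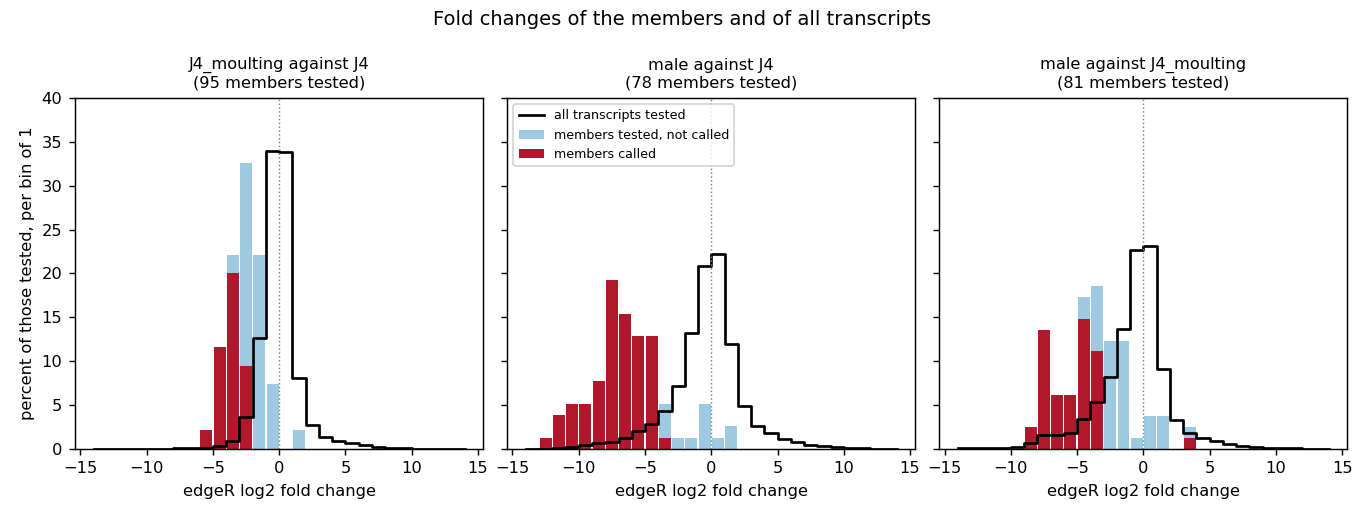
Distribution of edgeR log2 fold changes in the 3 comparisons, as percent of those tested per bin of 1, with a black line for all transcripts, red for members called and blue for members tested but not called. The members lie left of the bulk of transcripts, with a median of -2.63 for J4_moulting against J4, -6.51 for male against J4 and -3.81 for male against J4_moulting.

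Male was compared with J4 for the same reason. Of the 78 members that passed the filter, 66 were lower in male (12.6% of the 27863 transcripts tested) and none was higher (11.7%). DESeq2 and limma-voom also called none higher, and at an unadjusted p under 0.05 edgeR gave 70 lower and 0 higher. Of all 27863 transcripts tested, 10242 had such a p, in either direction. The median log2 fold change of the members was -6.51, against -0.15 over all transcripts. The 22 members that did not pass had J4 means of 1.26 to 27.3 CPM, and with no filter 85 of 100 were lower, beside 22.9% of all transcripts. A member that passes through its J4 level alone had to differ, so these counts describe the members tested and not the whole group. Every male animal lay below every J4 animal for 38 of the 100 members, beside 3.98% of all transcripts.

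Mi_20109.1 was at 0.109, 0.651, 0.246, 0.334, 0.842, 0.645 and 0.725 CPM in the 7 male animals, against 8.88, 32.5, 592, 81.2, 183, 31.0, 85.2 and 96.9 CPM in the 8 J4 animals. All male animals lay below all J4 animals, and the log2 fold change was -7.58 (SE 0.88, adjusted p = 5.68e-05, edgeR). Mi_31046.1 was at 0.211 CPM in male replicate 5 and had no count in the other 6 male animals, against 1.53, 5.35, 11.9, 33.2, 194, 4.02, 113 and 114 CPM in J4. Its log2 fold change was -10.14 (SE 1.35, adjusted p = 0.000147, edgeR), a value that depends on the near absence of counts in male.

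The 2 most abundant J4 members were also lower in male, and Mi_44064.1 was nearly gone there. Mi_19821.1 ran from 0 over 2.06 to 27.0 CPM in male against 8.50 over 94.2 to 942 CPM in J4, and Mi_44064.1 from 0 over 0 to 1.06 CPM in male against 4.96 over 121 to 747 CPM in J4. The male and J4 animals of Mi_44064.1 did not overlap, and those of Mi_19821.1 overlapped through male replicate 4. Their log2 fold changes were -4.19 (SE 1.18, adjusted p = 0.0154, edgeR) for Mi_19821.1 and -8.52 (SE 1.37, adjusted p = 0.000469, edgeR) for Mi_44064.1. J4 replicate 5 held the highest value of both.

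The 2 members most abundant in male kept a level there, among 5 members with a male mean of 10 CPM or more. Mi_06326.1 was at 1.48, 1052, 84.9, 83.1, 47.3, 273 and 8.87 CPM in the 7 male animals, against 219, 15.7, 243, 69.9, 147, 314, 127 and 16.9 CPM in the 8 J4 animals. Mi_37026.1 was at 1.56, 56.5, 81.7, 32.6, 87.4, 365 and 4.24 CPM in male, against 189, 14.5, 209, 120, 251, 381, 114 and 12.99 CPM in J4. Both overlapped J4 widely, both were lowest in male replicates 1 and 7, and neither passed the test. The log2 fold change of Mi_06326.1 was 1.09 (SE 1.09, adjusted p = 0.501, edgeR), negative in DESeq2, limma-voom and without male replicate 2, and that of Mi_37026.1 was -0.91 (SE 0.95, adjusted p = 0.522, edgeR). Together they made up 74.8% of the summed male level of the 100 members, and between 3.13 and 90.8% in individual male animals.

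Without J4 replicates 7 and 8, 51 members were lower in male than in J4, beside 6.93% of all transcripts. Leaving out each J4 or male library in turn gave 51 to 72 members lower and none higher. Under total counts the median of all transcripts moved to -0.54 and 31.5% of all calls were higher, against 48.1% with TMM, and 67 members were lower.

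Male was also compared with J4_moulting. Of the 81 members that passed the filter, 44 were lower in male (16.3% of the 31948 transcripts tested) and 1 was higher (10.7%). The median log2 fold change of the members was -3.81, against -0.36 over all transcripts. Here too a member that passed the filter through its J4_moulting level alone had to differ, so the counts describe the members tested. With no filter 53 of 100 members were lower in male, beside 19.6% of all transcripts, and 1 was higher. Every male animal lay below every J4_moulting animal for 3 members, beside 0.812% of all transcripts. The 3 comparisons share libraries pairwise, so their values are not independent of each other.

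Mi_06277.1, a member that kept its level in J4_moulting, was at 0.832, 0.745, 0, 0, 1.95, 1.71 and 0.948 CPM in male, against a range from 6.98 over 67.2 to 332 CPM in J4_moulting. No male animal reached the lowest J4_moulting animal, and the log2 fold change was -6.62 (SE 0.98, adjusted p = 4.08e-05, edgeR). Mi_16280.1 was at 0.223 CPM in male replicate 7 and had no count in the other male animals, against a range from 0.536 over 2.23 to 8.96 CPM in J4_moulting. Its stages did not overlap either, at levels near 1 CPM, and its log2 fold change was -6.36 (SE 1.09, adjusted p = 0.000194, edgeR).

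The member called higher was Mi_29827.1. It was at 0.940, 32.3, 9.29, 0, 0, 18.0 and 20.9 CPM in the 7 male animals, against a range from 0 over 0.274 to 3.58 CPM in J4_moulting. Of the male animals 4 lay above every J4_moulting animal and 3 lay within their range, and the log2 fold change was 3.94 (SE 1.23, adjusted p = 0.0198, edgeR). Without male replicate 2 the adjusted p was 0.0715, and with male replicate 1 or 7 left out a further member, Mi_06326.1, was called higher. With every library, Mi_06326.1 had a log2 fold change of 3.70 (SE 1.41, adjusted p = 0.0526, edgeR), running in J4_moulting from 0 over 2.10 to 152 CPM. Leaving out J4_moulting replicate 1 or any male library gave 32 to 43 lower members.

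The identifiers of the members were searched for the stretch of 200 gene numbers with the most members. It ran from 27017 to 27214 by its first and last members. In it lay 8 of the 100 members and 17 of the 1176 transcripts that passed every condition. Such a stretch holds 0.452% of all genes, but it was picked for its count of members, so that share is no measure of chance here. Mi_27089.1 and Mi_27061.1, which were missing from the same 7 animals, both lie in this stretch. The next densest stretch that does not overlap it held 5 members. The sources used here do not say whether neighbouring numbers are neighbours in the genome, and no genome was used.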

How the data were processed

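Whole-number counts per transcript were deposited by the authors in a full table of 45378 transcripts and a filtered table of 22287, with equal values and without normalization. HISAT2 2.2.1 and StringTie 2.2.1 were used per the submitters' processing notes. Not given in the sources used here are the genome build, the annotation, the strand setting and how reads of near-identical gene copies were assigned, which leaves the counts of copied genes uncertain. Of the 100 members, 59 are in the filtered table, and the full table was used.

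Groups were taken from the library titles, which name separate individuals. Libraries of a stage differed by more than sampling noise, with a lowest chi-square per degree of freedom of 46.5, so none was merged. Whether the animals came from separate plants is not stated, so p-values measure the spread between these animals.

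CPM was taken over the library total, with a pseudocount of 1 on the log scale. Only J4_moulting against J4, male against J4 and male against J4_moulting were tested, each on the libraries of its stages and over all transcripts, with edgeR 4.0.16 in R 4.3.3 (filterByExpr, TMM, robust quasi-likelihood test, two-sided). Calls needed a p under 0.05 after Benjamini-Hochberg adjustment over all transcripts tested, and a log2 fold change of 1 or more in size. The standard error was derived from the F statistic, dividing the size of the fold change by its square root. The pipeline was tested on simulated counts. A count of 0 allows 3 counts of the pooled stage total, for counting error only, since the libraries carry no molecular identifiers. Tables and figures were made in Python 3.11.15 with numpy 2.4.6, pandas 2.3.3 and matplotlib 3.10.9.

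The members, lists and tests were chosen with earlier results of these data known. Named are the 2 members highest in score, the 2 lowest inside the limit and the first 2 outside, the next 2 highest in par_J2, the 2 highest in J4, male and pre_J2, and the 2 called members with the smallest p per direction and comparison. Others are named as chosen after their values were seen. Alternatives were limma-voom 3.58.1 with sample weights, DESeq2 1.42.0, DESeq2 size factors, total counts, no low-count filter, the filtered table, a fit of all 75 libraries, no fold threshold, the replicate number as a block and libraries left out. J4_moulting replicate 1 left out, and only libraries whose number both stages share, were added after the data were seen. Sequences, gene names and gene lists were not analysed here.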

Additional observations from a re-analysis of the deposited data

Results flagged for a closer look

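Dixon's criterion on log2(CPM + 1) flags by chance about 1 in 20 groups of normally spread values, a rate that need not hold where many values are 0. By it, 1 library stood apart from the others in 11 of the 88 groups of a named member and a stage of 4 to 10 libraries. Of these, 4 were in female replicate 6, the animal that held the highest female value of 53 members: Mi_00644.1 was at 18.6 CPM there (others up to 0.677 CPM), Mi_14168.1 at 26.2 CPM (others up to 1.34 CPM), Mi_31046.1 at 2.37 CPM (others up to 0.348 CPM) and Mi_29827.1 at 1.89 CPM (others up to 0.370 CPM). In male, Mi_26823.1 was at 1.58 CPM in replicate 2 (others up to 0.223 CPM) and Mi_38656.1 at 21.3 CPM in replicate 5 (others up to 2.12 CPM). In J4, Mi_16280.1 was at 0.194 CPM in replicate 2 (others from 3.82 CPM). The remaining values were the only ones above 0 in their stage: Mi_14168.1 at 3.33 CPM in pre_J2 replicate 1, Mi_16280.1 at 0.581 CPM in pre_J2 replicate 5 and at 0.223 CPM in male replicate 7, and Mi_31046.1 at 0.211 CPM in male replicate 5. The cause was not tested.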

How the results depend on the processing

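No member was called higher in J4_moulting or in male than in J4 under any setting run. Each J4 library, each male library and J4_moulting replicate 1 were left out in turn, and the other J4_moulting libraries were not. The number lower in J4_moulting than in J4 was 31 to 47 without a J4 library, 53 without J4_moulting replicate 1 and 24 over only the libraries whose number both stages share. Lower in male than in J4 were 51 to 72 with libraries left out. Lower in male than in J4_moulting were 32 to 43 with libraries left out and 27 in the filtered table, where 57 members were tested. Higher in male than in J4_moulting, 1 in the main result, were 2 with DESeq2, the filtered table or a fit of all 75 libraries, 3 with limma-voom, 0 over shared numbers and 0 to 2 with libraries left out. Mi_06326.1 in male against J4, 1.09 in the main result, was -1.03 with DESeq2, -0.51 with limma-voom and, with libraries left out in turn, from -0.88 (without male replicate 2) to 1.83. The rule kept 91 to 97 of the 100 members with par_J2 or J4_female libraries left out in turn, 94 with TMM, 77 with stage medians, 81 with a pseudocount of 0.1 and 100 with counts summed to genes. The cause of these shifts was not tested.

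Libraries with the same replicate number did not deviate together (correlations from -0.18 to 0.13 for J4_moulting and J4), and the labels do not tie the numbers to a shared origin. With the replicate number as a block, 4 members were lower in J4_moulting than in J4, 2 of them among the 41, 49 lower in male than in J4, 33 lower and 0 higher in male than in J4_moulting, and Mi_06326.1 in male against J4 was -1.09. Of the named calls, the block lost Mi_25998.1 in J4_moulting against J4 (-2.13, adjusted p = 0.215, edgeR) and Mi_29827.1 in male against J4_moulting (2.83, adjusted p = 0.233, edgeR). At the lowest depth, 3265447 counts, 1 CPM is about 3 counts.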
